A study of Homo sapiens with 4 samples.

Results

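The collagen genes were read by 112 of the 54613 probe sets of an Affymetrix 3' expression array, taken as every probe set whose only gene symbol in the platform annotation is a collagen alpha chain name (COL, a type number, A, a chain number). These 112 probe sets stand for 43 chains among 19775 named genes. The samples were 4 cultures of the human glioblastoma line LN-229, an established cell line, with 1 array each: 2 of cells given doxycycline for 48 h to make them express WIF1, a secreted antagonist of WNT ligands, and 2 of the same line left without induction as controls. The labels call the cultures biological replicates and do not say whether the inducible line is a single clone. No array had the drug without WIF1 induction, so doxycycline and the protein cannot be told apart in any difference given here.

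All values are log2 signals made with RMA, and all differences are induced minus control on that scale, with 2 arrays in each group. A chain is described by its brightest probe set, and it is called bright where the mean of that probe set over the 4 arrays reached 6.16, the median signal on the array. Array medians lay between 6.15 and 6.19. Of 10 glioma and astrocyte lineage markers 8 were at or above the median, VIM (14.14), NES (11.85), S100B (11.53), FABP7 (11.49) and SOX2 (11.02) among them, and GFAP (5.66) and AQP4 (4.16) lay below it. So were 8 of 10 fibroblast and mural cell markers, 5 of 5 neuron markers and 2 of 5 epithelial markers at or above the median. These counts therefore do not single out a lineage. The single probe set for WIF1 was dim, at 2.93 and 3.03 in the induced arrays and 2.98 and 2.90 in the controls, so the induction could not be checked through it. Probe sets differ in how well they bind, so signals of different chains are not amounts of RNA.

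Collagens are the main structural proteins of the extracellular matrix, built of alpha chains that wind into a helix inside the cell, are hydroxylated and folded by dedicated enzymes, and are exported in large carriers. Fibrillar chains make the cables of connective tissue, type IV chains make the mesh of basement membranes, and fibril-associated chains (FACITs) coat fibrils. The healthy brain holds little fibrillar collagen outside vessels and meninges, and glioma cells are known to make several collagens of their own.

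Promoter sequence in 4 stretches shows the gene layout behind some of these chains. They come from the RefSeq promoter table of GRCh38.p14, which held 31 of the 43 chains, and are written 5' to 3' in lower case. Type IV genes lie in head-to-head pairs, and the first 2 stretches are the whole gap between the starts of a pair, on the plus strand. The COL4A1 and COL4A2 gap, 126 bases at chr13:110307158-110307283, lies between 2 bright genes, and the COL4A4 and COL4A3 gap, 135 bases at chr2:227164489-227164623, lies between 2 dim ones. The other stretches are the 250 bases before the start of COL12A1, the bright chain with the smallest p, at chr6:75206054-75206303, and before COL11A1, the chain with the highest signal, at chr1:103108523-103108772, both on the minus strand. Capitals mark GC boxes (GGGCGG, read on either strand) and CCAAT boxes (CCAAT, likewise).
COL4A1-COL4A2: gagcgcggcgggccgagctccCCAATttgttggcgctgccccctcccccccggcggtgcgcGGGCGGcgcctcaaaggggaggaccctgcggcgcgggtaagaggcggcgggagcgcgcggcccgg
COL4A4-COL4A3: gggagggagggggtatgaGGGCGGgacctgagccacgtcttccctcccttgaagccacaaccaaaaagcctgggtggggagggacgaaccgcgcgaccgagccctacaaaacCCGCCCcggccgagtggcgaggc
COL12A1: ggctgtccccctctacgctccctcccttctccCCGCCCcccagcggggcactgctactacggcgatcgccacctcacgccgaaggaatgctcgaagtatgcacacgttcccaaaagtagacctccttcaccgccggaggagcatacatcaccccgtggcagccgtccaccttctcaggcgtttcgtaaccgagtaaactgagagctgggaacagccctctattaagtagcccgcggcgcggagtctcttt
COL11A1: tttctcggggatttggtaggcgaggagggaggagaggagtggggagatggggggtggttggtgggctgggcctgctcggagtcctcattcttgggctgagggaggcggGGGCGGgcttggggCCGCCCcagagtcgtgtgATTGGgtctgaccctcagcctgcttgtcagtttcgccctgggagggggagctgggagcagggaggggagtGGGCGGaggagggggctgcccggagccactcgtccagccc
The COL4A1 and COL4A2 gap held 1 GC box and 1 CCAAT box, the COL4A4 and COL4A3 gap 2 GC boxes, the COL12A1 stretch 1 GC box, and the COL11A1 stretch 3 GC boxes and 1 CCAAT box. None held a TATA box (TATAAA) or the WNT-responsive TCF/LEF letters (CTTTGAT), which 10.7% and 2.26% of all 35116 windows of 250 bases hold on either strand. The 2 type IV gaps are shorter, and no share at their lengths was counted for these letters. A GC box occurs in 42.6% and a CCAAT box in 32.0% of the windows of 250 bases. In the 126 bases before a start these shares are 34.6% and 21.1%, and in 135 bases they are 35.5% and 22.1%. These matches describe the letters only.

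Of the 43 chains, 23 were bright and 20 dim, while by the same rule 12722 of all 19775 genes were bright. The fibrillar class had 6 bright of 11, type IV 3 of 6, the FACITs 7 of 10, type VI 2 of 5, and the multiplexins, the short chain network types and the transmembrane types 1 each, with 2 of the 3 remaining chains (COL7A1 and COL26A1). Brightness near 6.16 is not by itself a sign of expression: 5 of 11 leukocyte and endothelial markers were also at or above it, up to PECAM1 at 6.91. The chain just inside the limit was COL9A1 at 6.18 and the one just outside it COL5A2 at 5.99.

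**Figure D1:**
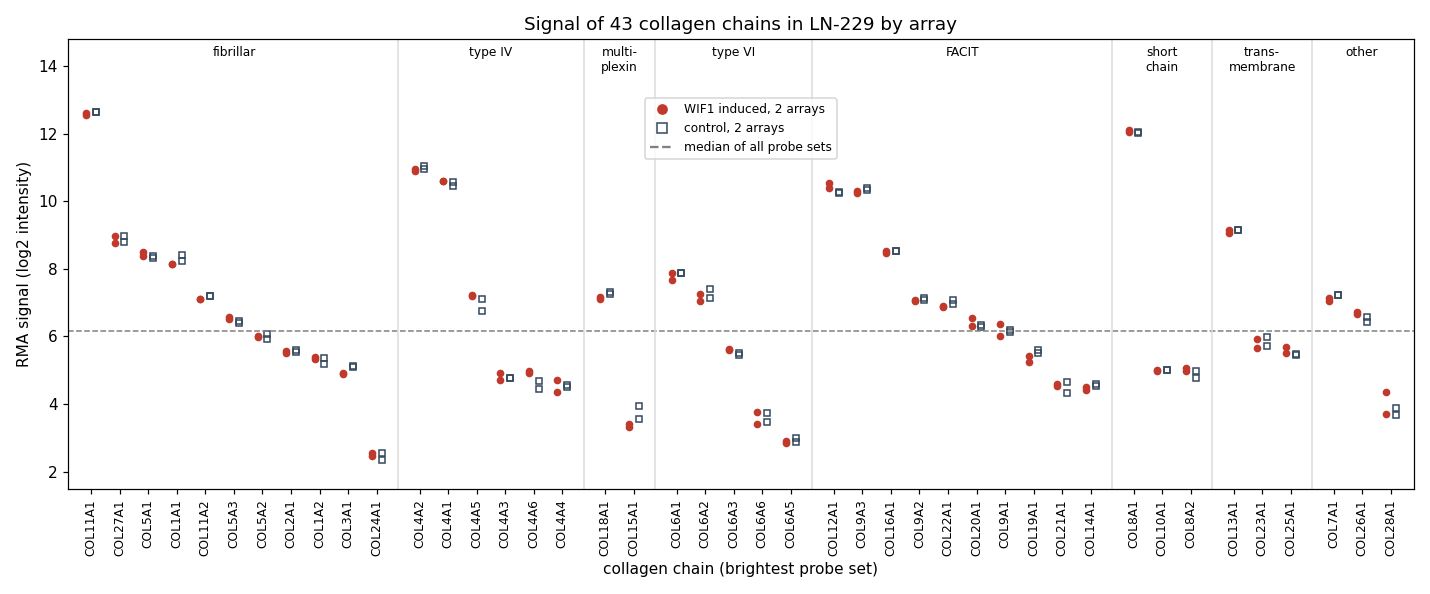
RMA signal (log2 intensity, vertical axis) of the brightest probe set of each of 43 collagen chains, grouped by class, with filled circles for the 2 induced arrays, open squares for the 2 control arrays and a dashed line at the median of all probe sets. COL11A1 at 12.61 and COL8A1 at 12.05 have the highest signals, and in each chain the 4 arrays lie close together compared with the range between chains.

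The differences between induced and control arrays were small for the collagen chains, at -0.17 to 0.29 over the 23 bright ones. No collagen probe set passed the test: limma called 0 of 112 at an adjusted p under 0.05, as it called 0 of all 54613 (0%), and the smallest adjusted p of a collagen probe set was 0.472. COL12A1, a FACIT that binds to the surface of type I fibrils, was the only chain with more than 1 probe set at an unadjusted p under 0.05 in limma. All 3 of its bright probe sets were higher in the induced arrays, and its dim ones gave -0.07 and 0.27. These probe sets were read on the same 4 arrays. The share of all genes with more than 1 probe set at that level was not counted. The basement membrane chains COL4A1 and COL4A2 differed by -0.10 to 0.08 over their probe sets, and the chain with the highest signal, COL11A1, by -0.07.

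At an unadjusted p under 0.05, 7 of the 112 collagen probe sets were higher, against 4.75% of all probe sets, and 2 were lower, against 5.27%. With arrays centred on their medians these counts were 9 and 2, while the split over all probe sets moved to 3477 higher and 1869 lower, against 2593 and 2876 in the fit as reported. The 7 were 3 of COL12A1 and 1 each of COL1A1, COL4A3, COL4A6 and COL9A2, of which those outside COL12A1 were dim. The 2 lower ones, of COL15A1 and COL2A1, were dim as well. The counts of higher and lower collagen probe sets changed when single arrays were left out, and so did the counts over all probe sets. By brightest probe set, 2 of 43 chains were higher (COL12A1 and COL4A6), against 6.48% of all genes, and 1 was lower (COL15A1), against 4.73%.

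COL12A1 was read by 5 probe sets. The brightest gave 10.40 and 10.52 in the induced arrays and 10.28 and 10.23 in the controls. Both induced arrays lay above both controls, by 0.20 on average (SE 0.053, 95% interval 0.07 to 0.33), a 1.15-fold signal with an unadjusted p of 0.00819 and an adjusted p of 0.472 in limma. The next probe set gave 8.87 and 8.88 in the induced arrays and 8.75 and 8.73 in the controls, a difference of 0.13 (SE 0.049). The probe set after it gave 8.19 and 8.29 in the induced arrays and 8.07 and 7.76 in the controls, a difference of 0.33 (SE 0.11). Neither shows an overlap between the groups. The dim probe sets gave -0.07 and 0.27, with overlapping groups. Leaving out each array in turn gave 0.14 to 0.26 for the brightest probe set, and an unadjusted p from 0.00614 to 0.0758 in limma, which then takes the spread from the group that keeps 2 arrays and from the prior. Over the same arrays the 3' minus 5' difference of the ACTB control probe sets was 0.033 and 0.11 in the induced arrays and -0.036 and 0.021 in the controls, and that of GAPDH was -0.043 and -0.047 in the induced arrays and -0.067 and -0.069 in the controls. The part of this shift towards 3' ends in the COL12A1 difference was not tested.

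**Figure D2:**
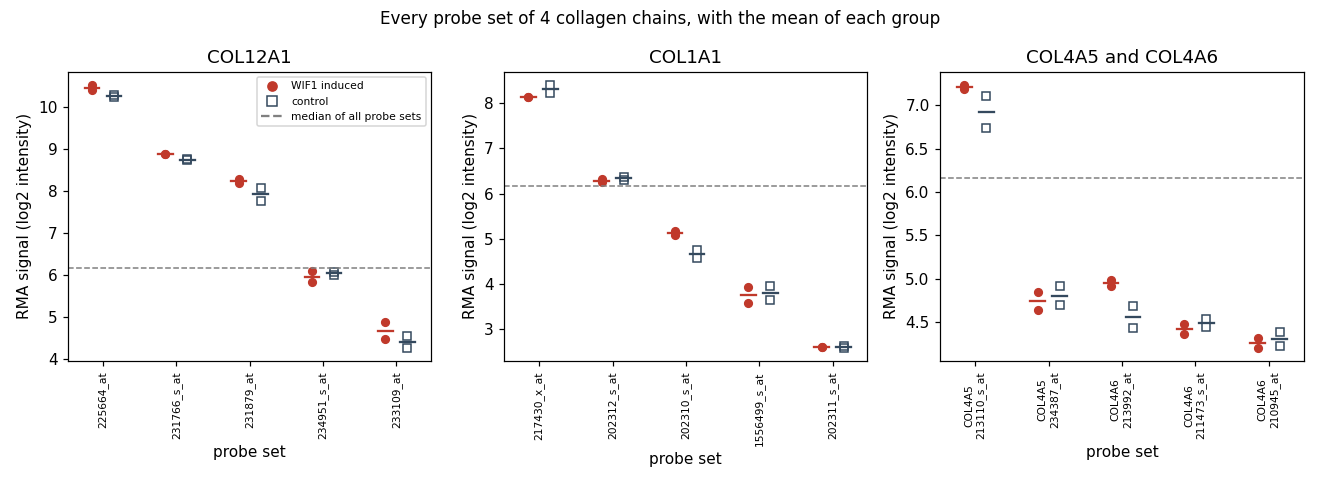
RMA signal (log2 intensity, vertical axes) of every probe set of COL12A1, COL1A1 and the pair COL4A5 and COL4A6, with points for single arrays, short bars for group means and a dashed line at the median of all probe sets. The 3 bright COL12A1 probe sets are higher in the induced arrays, while the differences in COL1A1, COL4A5 and COL4A6 change in sign or size from probe set to probe set.

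Among fibrillar chains, COL11A1, a minor fibril chain that limits fibril width in cartilage, gave 12.54 and 12.61 in the induced arrays and 12.63 and 12.65 in the controls. The induced arrays lay just below the controls, with a difference of -0.07 (SE 0.034, 95% interval -0.15 to 0.02). A second probe set at 12.17 gave 0.00, and another, at 7.48 and of the kind that can cross-hybridise (its name ends in _x_at), gave 0.35. Its partner COL11A2 gave 7.11 and 7.10 in the induced arrays and 7.19 and 7.20 in the controls, a difference of -0.09 (SE 0.067), against 0.01 in its other probe set. COL2A1, which joins both in cartilage fibrils, was dim at 5.55.

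COL27A1, a fibrillar chain known from cartilage, gave 8.77 and 8.98 in the induced arrays and 8.98 and 8.80 in the controls. The groups overlapped, and its 5 probe sets differed by -0.10 to -0.01. COL5A1, which starts the assembly of type I fibrils, gave 8.49 and 8.38 in the induced arrays and 8.38 and 8.32 in the controls, so the induced arrays were barely above the controls (0.09, SE 0.063), and its other probe sets gave 0.01 and 0.06. COL5A3 gave 6.51 and 6.59 in the induced arrays and 6.39 and 6.45 in the controls. That is a difference of 0.13 (SE 0.081) without overlap, but its other probe set gave -0.07. The remaining type V chain, COL5A2, was dim.

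COL1A1, a chain of the most abundant collagen of bone and skin, was bright only in part. Its brightest probe set, again of the cross-hybridising kind, gave 8.14 and 8.14 in the induced arrays and 8.23 and 8.40 in the controls. Both induced arrays were below the controls, by -0.17 (SE 0.073, adjusted p = 0.503), or by -0.085 without the second control array and -0.26 without the first. The next, at 6.31, gave -0.05, and a dim probe set gave 5.18 and 5.09 in the induced arrays and 4.76 and 4.57 in the controls, a difference of 0.47 (SE 0.11) in the opposite direction. The signal and the direction of COL1A1 therefore depended on the probe set. COL1A2, the other chain of type I, was dim at 5.32 and differed by 0.09 (SE 0.10), and COL3A1, the chain of type III, was dim at 5.01 and differed by -0.21 (SE 0.096). Over the 6 bright fibrillar chains the median difference was -0.04, with 2 higher and 4 lower by sign. That median was 0.00 without the first control array or without the first induced array, and 0.04 with probe sets averaged per gene, so it has no settled direction.

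In the type IV class, COL4A2 gave 10.95 and 10.90 in the induced arrays and 10.95 and 11.03 in the controls. The groups met only at the tied value of 10.95, which is counted as an overlap here. The difference was -0.07 (SE 0.044, 95% interval -0.17 to 0.04), and -0.10 in its other probe set. COL4A1, which winds with it into the common mesh of vessel basement membranes and whose gene starts 126 bases away, gave 10.58 and 10.60 in the induced arrays and 10.57 and 10.45 in the controls. The induced arrays lay above the controls by 0.08 (SE 0.051, 95% interval -0.04 to 0.20), and the other probe set gave -0.04. The difference was 0.019 without the second control array and 0.14 without the first. Both genes that flank the COL4A1-COL4A2 gap were thus bright. Their brightest probe sets had small differences of opposite sign, while their other probe sets were both lower, at -0.04 and -0.10.

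COL4A5 and COL4A6, the X-linked head-to-head pair whose starts lie 379 bases apart, had the most positive differences of the brightest probe sets. COL4A5, a chain of kidney and skin basement membranes, gave 7.19 and 7.23 in the induced arrays and 7.11 and 6.74 in the controls, with both induced arrays above (0.29, SE 0.13, adjusted p = 0.511). Without the second control array, which was the low one, the difference was 0.10, and without the first control array it was 0.47. COL4A6 was dim, with 4.98 and 4.91 in the induced arrays and 4.43 and 4.69 in the controls (0.39, SE 0.12, adjusted p = 0.472), and its difference was 0.26 without the first control array and 0.52 without the second. The other probe sets of the pair did not share this: COL4A5 gave -0.06, and COL4A6 -0.06 and -0.05. COL4A3 and COL4A4, chains of the glomerular basement membrane, were dim at 4.79 and 4.54, and their brightest probe sets differed by 0.04 and 0.01. The 7 probe sets of COL4A3 ran from -0.24 to 0.47. Over the 3 bright type IV chains the median difference was 0.08, against -0.04 over the bright fibrillar chains. With 3 chains this median is the value of the brightest COL4A1 probe set alone. The other bright probe sets of the class gave -0.04 for COL4A1 and -0.10 for COL4A2. The type IV median was 0.019 without the second control array, 0.14 without the first and 0.020 with probe sets averaged per gene. The gap between the classes was not tested, and with single chains spread from -0.17 to 0.29 the classes overlap.

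Among the other FACITs, COL9A3, a chain of the type IX collagen of cartilage, gave 10.29 and 10.25 in the induced arrays and 10.33 and 10.39 in the controls. Both induced arrays were lower, by -0.09 (SE 0.043, 95% interval -0.19 to 0.01). COL9A2 gave 7.08 and 7.06 in the induced arrays and 7.07 and 7.12 in the controls and overlapped (-0.03, SE 0.069), while its dim probe set gave 0.33. COL9A1 sat at the limit, with 5.999 and 6.38 in the induced arrays and 6.13 and 6.19 in the controls, and the induced arrays lay on either side of the controls (0.03, SE 0.14). COL16A1, which links cells and matrix in skin and is known in glioma, gave 8.51 and 8.47 in the induced arrays and 8.52 and 8.53 in the controls (-0.03, SE 0.053), a gap smaller than its SE. COL22A1, known at tissue junctions, gave 6.86 and 6.91 in the induced arrays and 6.96 and 7.07 in the controls, all induced values below the controls (-0.13, SE 0.078). COL20A1 gave 6.29 and 6.55 in the induced arrays and 6.29 and 6.32 in the controls, with a difference of 0.11 (SE 0.11), and of -0.01 without the second induced array.

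COL8A1, a short network-forming chain known from vessel walls and the cornea, had the second highest signal of all chains, at 12.03 and 12.10 in the induced arrays and 12.004 and 12.05 in the controls. The groups overlapped and the difference was 0.04 (SE 0.038, 95% interval -0.05 to 0.13). Its partner COL8A2 was dim at 4.94. COL13A1, a transmembrane collagen of adhesion sites, gave 9.14 and 9.07 in the induced arrays and 9.15 and 9.15 in the controls. The induced arrays were lower by a margin under the SE (-0.04, SE 0.051), and its other probe sets, both of the cross-hybridising kind, gave -0.15 each.

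The chains of beaded microfibrils, COL6A1 and COL6A2, were bright, and the partner COL6A3 was dim at 5.54. COL6A1 gave 7.87 and 7.68 in the induced arrays and 7.86 and 7.89 in the controls, an overlap with a difference of -0.10 (SE 0.079), and its 7 other probe sets ran from -0.04 to 0.26. COL6A2 gave 7.26 and 7.04 in the induced arrays and 7.13 and 7.40 in the controls, with an overlap again (-0.12, SE 0.12). Its other probe set, also bright at 6.24, gave 0.02. COL18A1, a basement membrane collagen from which endostatin is cut, gave 7.11 and 7.16 in the induced arrays and 7.25 and 7.31 in the controls. It was lower in both induced arrays by -0.15 (SE 0.069), and by -0.02 in its other probe set. COL15A1, the related multiplexin, was dim, at 3.33 and 3.40 in the induced arrays and 3.54 and 3.93 in the controls (-0.37, SE 0.15, adjusted p = 0.49). Its difference was -0.18 without the second control array and -0.57 without the first. COL7A1, the anchoring fibril chain of skin, gave 7.13 and 7.05 in the induced arrays and 7.21 and 7.21 in the controls, lower in both induced arrays and by both probe sets (-0.12, SE 0.070, and -0.11). COL26A1 gave 6.66 and 6.71 in the induced arrays and 6.57 and 6.44 in the controls (0.18, SE 0.084), with -0.24 in its other probe set.

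The 20 dim chains had signals from 2.48 to 5.99 and differences from -0.37 to 0.39, with 10 higher and 10 lower by sign. Besides COL4A6 and COL15A1, none of them reached an unadjusted p of 0.05 in its brightest probe set. A dim probe set bounds no amount of RNA, so these chains are not said to be absent.

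**Figure D3:**
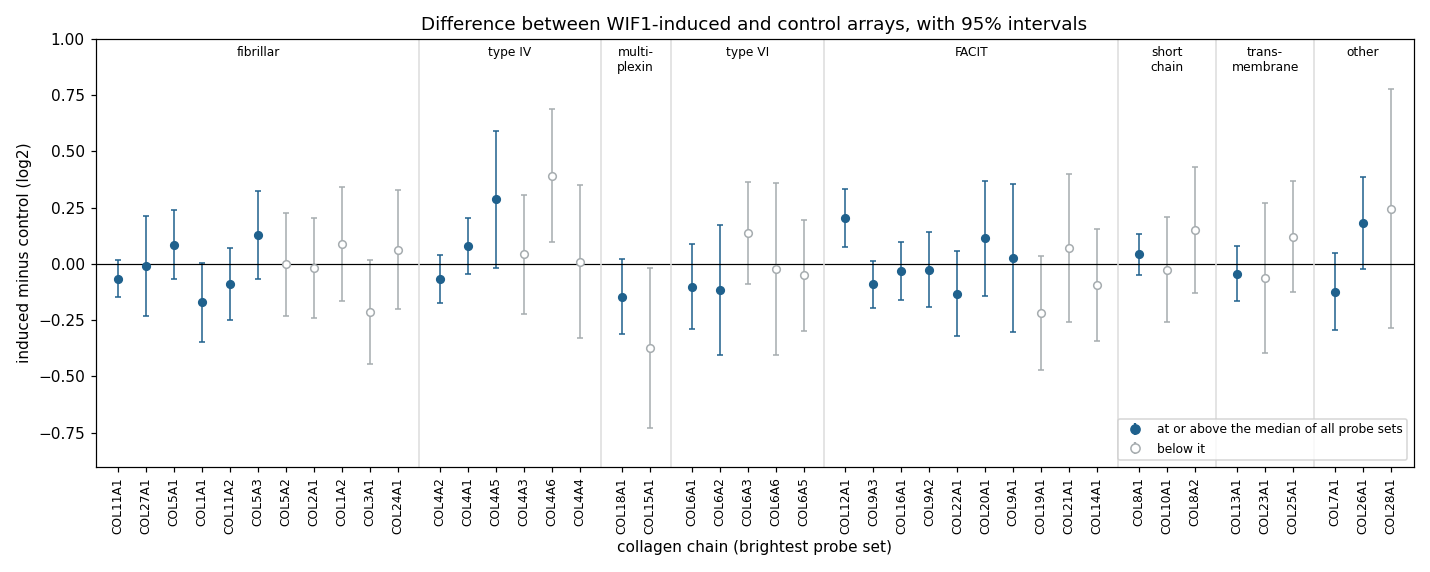
Difference in signal between induced and control arrays (log2, vertical axis) for the brightest probe set of each of 43 collagen chains, with 95% intervals from limma, filled where the chain is bright and open where it is dim. Most intervals cross 0, the interval of COL12A1 runs from 0.07 to 0.33, and no chain has an adjusted p under 0.05.

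Over the 23 bright chains the median difference was -0.03, against -0.005 over all 12722 bright genes. By sign 9 chains were higher and 14 lower. The groups did not overlap in 15 of the 23, against 48.6% of bright genes. Over all 43 chains both induced arrays lay above both controls in 9, against 21.4% of genes, and below them in 13, against 22.4%, which makes 22 chains without overlap, against 43.9% of genes. With 2 arrays a group, an exact permutation test of a single chain cannot give a p under 0.333. In 10 bright chains the 95% interval of the brightest probe set lay within 0.25 of 0. These were COL11A1, COL8A1, COL4A1, COL4A2, COL9A2, COL9A3, COL5A1, COL13A1, COL16A1 and COL27A1. The interval bounds the difference of that probe set without showing that it is 0. Other probe sets of these chains are not held to it: 1 of COL9A2 gave 0.33 and 1 of COL11A1 gave 0.35. Over the brightest probe sets of the bright chains, the widest bounds were 0.59 above 0 for COL4A5 and 0.40 below 0 for COL6A2 (interval limit -0.40). Probe sets of a chain often disagreed: of 35 chains with more than 1 probe set, 21 had probe sets pointing both ways. Among the 15 chains with several bright probe sets, 9 pointed 1 way in all of these, with COL12A1, COL5A1 and COL8A1 higher in all such probe sets and COL4A2, COL7A1, COL13A1, COL18A1, COL27A1 and COL1A1 lower in all.

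The genes that make, carry, cross-link, bind and break down collagen were mostly bright, 109 of 134 measured, against 12722 of all 19775 genes. Of the 134, 0 passed the adjusted test. At an unadjusted p under 0.05, 15 were higher and 15 lower, against 6.48% and 4.73% of all genes. Dim genes are part of that background, and over the 12722 bright genes alone 1015 were higher and 716 lower. The counts in the lists below stand beside these same backgrounds. The median difference of the 134 genes was -0.01.

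Of 19 genes for hydroxylation and folding, all were bright, 1 was higher and 3 lower at that unadjusted level. SERPINH1, the collagen chaperone HSP47, differed by -0.12 (SE 0.038), the lysyl hydroxylase PLOD1 by -0.15 (SE 0.059), the prolyl 3-hydroxylase P3H2 by -0.42 (SE 0.14, with -0.03 in its other probe set), and LARP6, which binds type I collagen mRNA, by 0.17 (SE 0.054). Of 12 genes for export, 3 were higher and 1 lower. The coat gene SEC24D differed by 0.75 (SE 0.10, adjusted p = 0.338), SAR1B by 0.29 (SE 0.071), SAR1A by 0.12 and PDCD6 by -0.16. The other probe sets of SEC24D ran only from -0.25 to 0.06. Those of SAR1B ran from -0.27 to 0.19, those of SAR1A from -0.06 to 0.09 and those of PDCD6 from 0.01 to 0.04.

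For propeptide removal and cross-linking, 1 of 15 genes was higher, the dim LOX at 0.34 (SE 0.097), and 4 lower. The lower ones were all bright: the lysyl oxidases LOXL2 at -0.22 (SE 0.048) and LOXL3 at -0.10 (SE 0.040), peroxidasin (PXDN), which cross-links type IV collagen, at -0.11 (SE 0.035), and the procollagen protease enhancer PCOLCE at -0.13 (SE 0.045). Other probe sets of LOXL2 ran from -0.25 to 0.07. Of 16 genes of collagen breakdown, 0 were higher and 2 lower, the protease inhibitor TIMP3 at -0.20 (SE 0.067, and -0.37 to -0.17 in its other probe sets) and the proline dipeptidase PEPD at -0.13. The gelatinase MMP2 and the inhibitor TIMP1 differed by -0.10 and -0.07, and the other probe sets of MMP2 ran from -0.33 to 0.23. Of 12 receptors, 0 were higher and 1 lower, LAIR1 at -0.24 (SE 0.079, with 0.01 in its other probe set). The integrin chains ITGB1 and ITGA2 and the receptor OSCAR differed by 0.08, 0.07 and 0.14. The other probe sets of ITGB1 ran from -0.20 to -0.002.

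Among 17 basement membrane partners 1 was higher, the laminin chain LAMB1 at 0.20 (SE 0.060, with -0.04 in its other probe set), and 0 lower. Perlecan (HSPG2), LAMC1 and NID2 differed by -0.18, -0.07 and -0.13, and the other probe sets of HSPG2 and LAMC1 gave 0.04 and 0.02. Of 19 fibril partners 3 were higher and 3 lower. The proteoglycans LUM and PRELP differed by 0.34 (SE 0.055) and 0.36 (SE 0.082), and THBS1 by 0.39 (SE 0.082), while TGFBI differed by -0.11 (SE 0.031), THBS2 by -0.14 and EMILIN1 by -0.20. The other probe sets of LUM, PRELP and THBS1 gave -0.05, -0.02 to 0.04 and -0.27 to 0.17. Of 24 regulators of collagen transcription 6 were higher and 1 lower, with ETS1 at 0.31 (SE 0.047, adjusted p = 0.391), KLF4 at 0.43 (SE 0.083, with -0.30 in its other probe set), CCN2 at 0.13, TGFB2 at 0.23, RUNX2 at 0.25 and SP3 at 0.19, and the lower one YBX1 at -0.10.

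**Figure D4:**
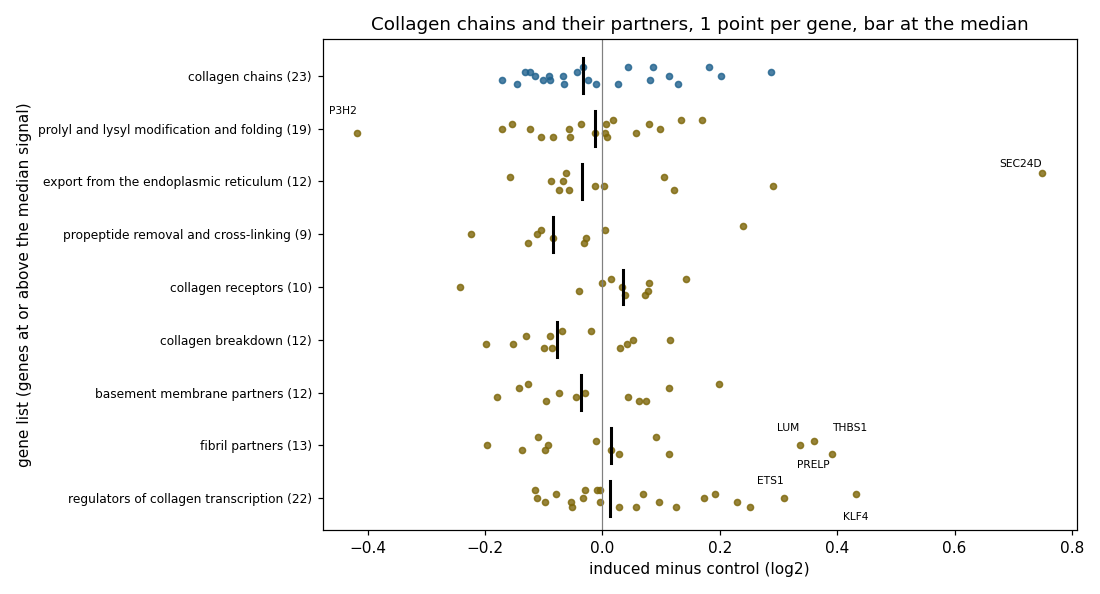
Difference between induced and control arrays (log2, horizontal axis) for bright genes of the collagen chains (top line) and of 8 lists of partner genes, 1 point per gene with a bar at each median and the number of genes in parentheses. All medians lie between -0.085 and 0.04, with SEC24D at 0.75 farthest above 0 and P3H2 at -0.42 farthest below it.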

How the data were processed

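RNA of 4 cultures was hybridised to 1 array each. The deposited values are log2 signals, and the submitters' processing notes name RMA and affy as the tools behind them. Their versions are not given in the sources used here. RMA equalises the distributions of the arrays, so a change shared by most genes would not be seen, and low signals are compressed.

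Of 54675 rows, 62 control probe sets stayed out of the tests. Groups come from the sample titles. The 54613 others were fitted with limma 3.58.1 in R 4.3.3 (lmFit, eBayes with an intensity trend, 2-sided, 6.27 degrees of freedom), with Benjamini-Hochberg adjustment over all of them and a threshold of 0.05. Collagen probe sets were picked by their symbol in the platform annotation. Genes are named by the RefSeq symbol of their gene identifier where there is one, and by the platform symbol otherwise. 41091 probe sets have 1 symbol and 1801 several, which were not named.

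Every bright chain is named, a dim chain where its brightest probe set had an unadjusted p under 0.05, and up to 4 bright members of smallest p from each partner list. Other genes and probe sets were chosen after their values were seen. The members and lists were chosen with earlier results of these data known. Classes of chains follow common knowledge. No test over a list was run.

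Alternatives were a replicate block, other eBayes settings, filters on dim probe sets, median centring, cyclic loess, averaging per gene, other limits, and leaving out each array, which leaves 1 array in a group and takes its spread from the other group and the prior. The scripts were tested on simulated data. The ranges over the other probe sets of a chain were added after seeing the data. Array number limits the precision.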

Additional observations from a re-analysis of the deposited data

How the results depend on the processing

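No collagen probe set passed an adjusted p of 0.05 under any alternative run, nor of 0.1 in the fit as reported, and the lowest adjusted p of a named chain was 0.332 (COL12A1, over bright probe sets only). The same-numbered arrays of the groups deviated together only weakly (r = 0.0564 over all probe sets and 0.107 over bright ones, with 2 pairs), and were not treated as pairs. At an unadjusted p under 0.05, the replicate block gave 5 higher and 2 lower collagen probe sets, against 7 and 2 without it. Over all 54613 probe sets the block gave 1993 higher and 2431 lower, against 2593 and 2876 without it. The block left every median as it was. Where an array was left out, the p-values assume that the lone array of its group varies like the other group. The count of higher ones was 3 of 46 over bright probe sets (with 0 lower), against 1786 higher and 1682 lower of all 27307. It was 1 of 43 genes with probe sets averaged per gene, against 1009 of all 19775. The count of lower ones was 4 without the trend, against 2733 of all 54613. It was 1 over probe sets with a mean of at least 4, against 2493 of all 46189. Both counts changed when an array was left out, as did those over all probe sets. In the fit as reported, the bright collagen probe sets also had 3 higher and 0 lower. The lower COL15A1 probe set, at 3.55, lay under the limit of 4. The cause of the other shifts was not tested. The median of the bright chains was -0.0076 after centring arrays on their medians and -0.042 to -0.012 when an array was left out. That of the bright type IV chains was 0.020 after averaging per gene and 0.019 to 0.14 when an array was left out. That of the bright fibrillar chains was 0.035 after averaging per gene and -0.094 to 0.0015 when an array was left out.

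Of 297 values of 25 named chains under alternatives, 281 kept their direction and 16 turned it, all of them uncalled. Averaging per gene gave 0.094 for COL11A1, 0.041 for COL1A1, -0.030 for COL26A1, 0.057 for COL6A1, -0.026 for COL8A1, -0.077 for COL9A1 and 0.15 for COL9A2. Centring gave 0.014 for COL27A1, and cyclic loess 0.00061 for COL9A2. Leaving out each array in turn gave -0.12 to 0.096 for COL27A1, -0.16 to 0.22 for COL9A1, -0.25 to 0.021 for COL6A2, -0.050 to 1.6e-05 for COL9A2 and -0.012 to 0.24 for COL20A1. The cause of these turns was not tested. The other 15 chains, COL12A1, COL4A1 and COL4A2 among them, kept their direction in all that were run.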
